A study of Danio rerio with 6 samples.

Results

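The cadherin and protocadherin genes are 86 of the 25920 genes in the deposited table. They are the genes whose symbol begins with cdh and a digit, or with pcdh, and whose estimated counts summed to at least 10 over the 6 libraries. The symbol cdh31 also matched, but its counts summed to 3. By their names, 13 members were classical cadherins (4 of type I and 9 of type II), 7 were other genes with a cdh symbol, 48 were clustered protocadherins and 18 were protocadherins outside the clusters. RNA came from zebrafish of the transgenic strain Tg(myl7:mCherry), in which a heart muscle promoter drives a red fluorescent protein. The DAPT group had been kept in 100 µM DAPT, and the DMSO group in the solvent DMSO, from 60 to 96 hours post fertilization (hpf). All fish carried the transgene, and there were 3 libraries per group. DAPT inhibits gamma-secretase, the protease within the membrane that frees the intracellular part of Notch receptors. The labels give hearts as the tissue while the design text of the series speaks of embryos, and the labels do not tie libraries to clutches. The p-values therefore describe spread among libraries, and that spread may be purely technical.

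Cadherins are calcium-dependent adhesion proteins that join neighbouring cells through repeated extracellular domains. Classical cadherins bind catenins inside the cell and so link adherens junctions to actin. Those of type I hold most epithelia, heart muscle and neural tissue together, and those of type II are typical of vessels, mesenchyme and groups of neurons. Protocadherins have a larger set of extracellular repeats and do not bind beta-catenin. They are best known from the nervous system, where the clustered ones give neurons a combination of surface identities. In mammals the cut ends of E-cadherin, N-cadherin and several clustered protocadherins are known substrates of gamma-secretase, after a first cut by a metalloprotease such as ADAM10. The RNA levels given here do not measure such cleavage.

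Library totals were 21439371 to 21808613 estimated counts with DAPT and 20542549 to 20656633 with DMSO. Levels are given in CPM, each gene's counts scaled to a common library size with edgeR's TMM factors. Levels of different genes are compared only in the authors' TPM, which scale by gene length as well. Log2 fold changes are DAPT minus DMSO ± standard error, and adjusted p is from edgeR's quasi-likelihood test with Benjamini-Hochberg adjustment across all 22092 tested genes; a call needs a value under 0.05. Heart muscle markers were present, with a summed level of 13383 to 13879 CPM in DAPT libraries and 7399.9 to 9346 CPM in DMSO libraries. Markers of other tissues were present as well, the epidermis list for example at 29124 to 30719 CPM with DAPT and 28892 to 32966 CPM with DMSO. The retina list had 1273.5 to 1279 CPM with DAPT and 3383 to 5644 CPM with DMSO. The lens list had 2279 to 2294 CPM with DAPT and 3381 to 5362 CPM with DMSO. The libraries thus hold RNA of many cell types, and the levels given are not those of heart tissue alone. In such bulk samples fewer cells of a type and less RNA per cell cannot be told apart.

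Most members that changed were lower with DAPT, and the exceptions included several of the most abundant ones. The vascular cadherin gene cdh5, the epithelial cadherin gene cdh1 and the gut and kidney cadherin gene cdh17 rose. Of the classical cadherins 2 rose, 8 fell and 3 did not pass. Among protocadherins outside the clusters 13 fell, 5 did not pass and 0 rose by edgeR, DESeq2 or limma-voom; 1, pcdh9, was higher at an unadjusted p under 0.05. Among other genes with a cdh symbol 2 rose, 1 fell and 3 did not pass, and 1 was too low to test. Among clustered protocadherins 4 rose, 12 fell and 31 did not pass, and 1 was too low to test. For comparison, 22.4% of all genes tested were called higher and 24.3% lower, 46.6% in either direction. The medians of the log2 fold change were -0.45 in classical cadherins, -0.31 in protocadherins outside the clusters, -0.15 in clustered ones and -0.0058 in other cdh genes, against -0.0043 over all genes tested. With library totals in place of TMM factors the median over all genes was -0.10, and that of the other cdh genes was -0.10. The calls then were 1 higher and 18 lower in clustered protocadherins, and 1 higher and 2 lower in other cdh genes.

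**Figure D1:**
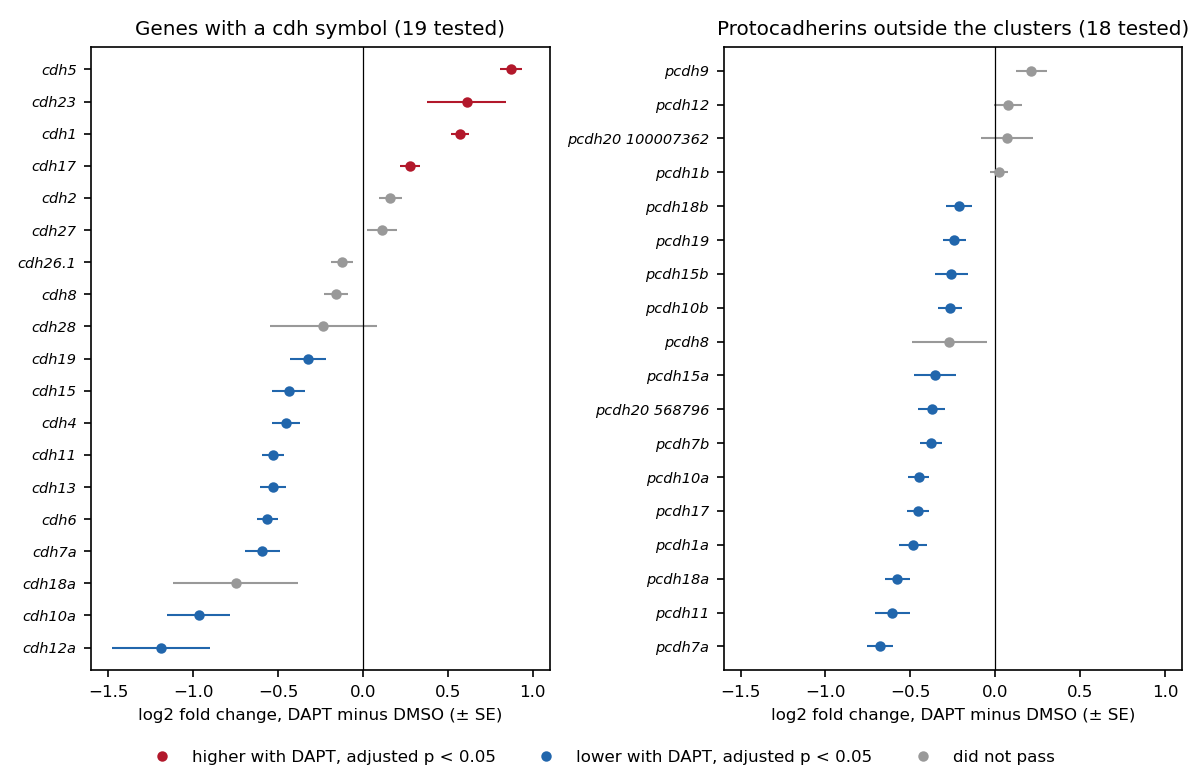
Log2 fold change (DAPT minus DMSO, horizontal axis, ± standard error) of each tested gene with a cdh symbol (left) and of each tested protocadherin outside the clusters (right), sorted by value and coloured by the call at an adjusted p of 0.05. In the left panel cdh5, at 0.87, and cdh12a, at -1.19, are the ends of the range, and in the right panel the 13 called genes all lie to the left of 0.

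Summed levels separated the subfamilies differently from the counts of calls, because a few genes carry most of the RNA. The 4 type I genes together had 706, 664 and 702 CPM in DAPT libraries, against 578, 570.3 and 541 CPM in DMSO libraries. Their sum was higher in all DAPT libraries, at 1.23 times the DMSO mean. Only cdh1 among them was called higher, while cdh2 did not pass and cdh4 and cdh15 fell. Without cdh1, whose counts may include shared reads, the sum of the other 12 classical cadherins overlapped between the groups. Its ratio was 1.05 in CPM and 0.952 in TPM. The 9 type II genes had 322, 293 and 300.3 CPM with DAPT, against 302, 292 and 311 CPM with DMSO, so their sums overlapped although 6 of the 9 fell. The gene cdh5 offset the others in that sum. Protocadherins outside the clusters summed to 559, 514 and 544 CPM with DAPT, against 629, 639 and 673 CPM with DMSO, a ratio of 0.833 with no overlap. In TPM, classical cadherins made up 45.6 to 46.6% of the summed level of all members with DAPT and 38.7 to 41.3% with DMSO. The classical sum itself overlapped in TPM, with a ratio of 1.05, while the sum of all protocadherins was lower in every DAPT library, with a ratio of 0.758. The share of clustered protocadherins was 17.6 to 18.4% with DAPT and 19.99 to 23.5% with DMSO.

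**Figure D2:**
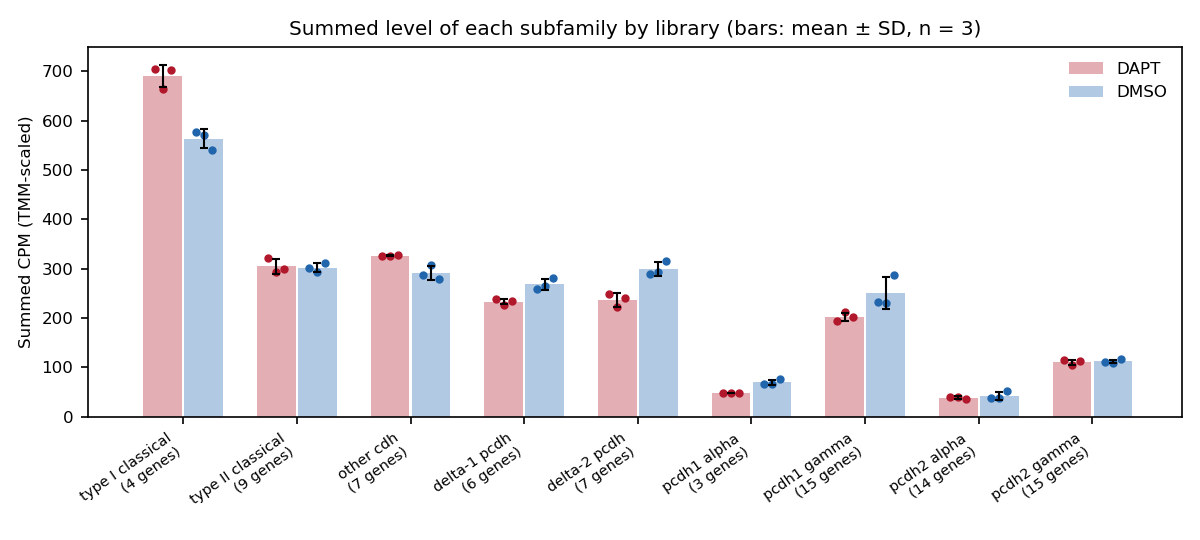
Summed level (CPM, TMM-scaled, vertical axis) of 9 subfamilies in DAPT libraries (left bar of each pair) and DMSO libraries (right bar). Bars are means over 3 libraries with SD, and points are libraries. Type I classical cadherins stand higher with DAPT, although only cdh1 of them was called higher. The delta and pcdh1 protocadherins stand lower.

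Most neuron and glia markers were lower with DAPT, as were most protocadherins outside the clusters. Of the clustered protocadherins, 31 did not pass. Of the neuron markers tested 16 of 19 fell, with a summed level of 1306 to 1370.1 CPM in DAPT libraries and 1656 to 1939 CPM in DMSO libraries. The neuron markers elavl3 (-0.07 ± 0.09), elavl4 (-0.10 ± 0.06) and rbfox3a (0.004 ± 0.06) did not pass. Of 12 glia markers 9 fell, with 376 to 421 CPM with DAPT and 993 to 1078 CPM with DMSO. All 15 tested retina markers but 1 fell. Markers of non-neural tissues fell too: all 10 lens markers and 9 of 11 tested liver markers. None of these genes was at 0 in all libraries. Of 19 endothelial markers 13 rose and 1 fell, with 1104 to 1164 CPM with DAPT and 747 to 894 CPM with DMSO. The part of these cell types in the members' changes was not tested.

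Type I classical cadherins were dominated by cdh1 and cdh2. The gene cdh1 (gene ID 114424) encodes E-cadherin, the main adhesion protein of epithelial junctions. It had 291, 301 and 297 CPM in DAPT libraries, against 198, 202 and 198 CPM in DMSO libraries. Every DAPT library stood well above every DMSO library, and the log2 fold change was 0.57 ± 0.05 (adjusted p = 4.14e-06). Part of its counts were not whole, so reads shared with a similar gene may be included. In the epidermis marker list 4 of 13 genes rose (tp63, epcam, cldni and anxa1c) and 4 fell (krt5, krt17, evpla and agr2). Gut markers are given with cdh17 below. The part of epithelial cells in the rise of cdh1 was not tested.

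N-cadherin, the product of cdh2 (gene ID 30291), holds heart muscle cells and neural cells together. Its gene had 389, 340.0 and 381 CPM with DAPT, against 348, 335 and 309 CPM with DMSO. The groups overlapped, since DAPT replicate 2 lay below DMSO replicate 1, and it did not pass (0.16 ± 0.07, adjusted p = 0.0753). Without DAPT replicate 2 it was 0.22 and passed (adjusted p = 0.033; range over alternatives 0.033 to 0.44). In TPM, cdh2 averaged 122.6 ± 10.8 with DAPT and 121.8 ± 4.68 with DMSO (SD, n = 3 each), and cdh1 averaged 140.5 ± 3.12 with DAPT and 105 ± 2.75 with DMSO. In mean TPM cdh1 stood above cdh2 with DAPT and below it with DMSO, and cdh17 averaged 110.3 ± 2.56 with DAPT and 101 ± 6.44 with DMSO.

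The remaining type I genes were lower with DAPT. R-cadherin, encoded by cdh4 and known from the retina and brain, had 13.8, 12.9 and 13.8 CPM with DAPT, against 16.9, 19.3 and 19.3 CPM with DMSO (-0.45 ± 0.08, adjusted p = 0.000773). M-cadherin, encoded by cdh15 and known from skeletal muscle precursors, had 12.2, 9.95 and 10.3 CPM with DAPT, against 15.0, 14.1 and 15.0 CPM with DMSO (-0.44 ± 0.09, adjusted p = 0.00249). In neither gene did the groups overlap. Of 17 skeletal muscle markers 8 rose, 0 fell and 9 did not pass. Their summed level was 14566 to 17975 CPM with DAPT and 10706 to 14484 CPM with DMSO. Markers of muscle precursors were not summed apart, and the part of muscle cells in the fall of cdh15 was not tested.

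Among type II classical cadherins the vascular gene moved against the rest. VE-cadherin, encoded by cdh5 (gene ID 445471), seals the junctions between endothelial cells. Its 3 DAPT libraries had 159, 142 and 142 CPM, against 84.4, 81.5 and 76.4 CPM in DMSO libraries. All DAPT libraries lay far above all DMSO libraries, and DAPT replicate 1 was the highest. The log2 fold change was 0.87 ± 0.06 (adjusted p = 6.33e-07), the larger of the 2 rises among classical cadherins. Its TPM averaged 74.3 ± 4.95 with DAPT and 45.2 ± 1.27 with DMSO (SD, n = 3 each), the highest among the type II genes in both groups except that cdh11 averaged 49.1 ± 5.52 TPM with DMSO. Of the 19 endothelial markers above, 13 rose as cdh5 did, while lyve1b fell (-0.59 ± 0.13). The markers kdrl, tek, erg, stab1 and stab2 did not pass. The part of endothelial cells in the rise of cdh5 was not tested. The protocadherin gene pcdh12, whose product is known in mammals as an endothelial protocadherin, had 21.5, 18.8 and 19.9 CPM with DAPT, against 19.3, 17.6 and 20.2 CPM with DMSO. The groups overlapped and it did not pass (0.08 ± 0.08, adjusted p = 0.475), with a value of -0.023 under library totals.

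The genes cdh6 and cdh11 were the most counted type II genes that fell. The product of cdh6 is known from kidney tubules and the early neural tube. It had 41.8, 40.2 and 42.7 CPM with DAPT, against 61.5, 57.8 and 64.9 CPM with DMSO (-0.56 ± 0.06, adjusted p = 1.58e-05). The product of cdh11, also called OB-cadherin, joins mesenchymal cells. Levels of cdh11 were 70.0, 66.8 and 66.7 CPM with DAPT, against 94.7, 91.3 and 108 CPM with DMSO (-0.53 ± 0.07, adjusted p = 4.97e-05). For both genes all DAPT libraries lay below all DMSO libraries. The DMSO libraries of cdh11 were spread more widely (SD 8.54 CPM) than its DAPT libraries (SD 1.87 CPM).

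The less abundant type II genes, known mainly from groups of neurons, lay lower with DAPT without overlap. The gene cdh12a had 0.669, 1.02 and 0.846 CPM with DAPT, against 1.72, 1.42 and 2.65 CPM with DMSO, the largest fall of any member in fold (-1.19 ± 0.29, adjusted p = 0.00487). For cdh10a the values were 1.72, 2.05 and 1.93 CPM with DAPT, against 3.01, 3.61 and 4.52 CPM with DMSO (-0.97 ± 0.19, adjusted p = 0.00119). DMSO replicate 3 was the highest library for both. Expression of cdh7a was 9.75, 7.66 and 8.51 CPM with DAPT, against 12.6, 12.7 and 13.9 CPM with DMSO (-0.59 ± 0.10). The gene cdh18a, at 0.329 to 0.390 CPM with DAPT and 0.475 to 0.821 CPM with DMSO, was not called (-0.75 ± 0.37, adjusted p = 0.116). Neither did cdh8, at 18.1 to 20.3 CPM with DAPT and 20.6 to 21.5 CPM with DMSO (-0.16 ± 0.07, adjusted p = 0.0945), which passed with library totals alone (-0.26, adjusted p = 0.017; range over alternatives 0.017 to 0.273). The gene cdh19, known in mammals from Schwann cell precursors, had 18.9, 14.4 and 18.1 CPM with DAPT, against 23.1, 22.1 and 19.2 CPM with DMSO (-0.32 ± 0.11, adjusted p = 0.0252). That call was lost without DAPT replicate 2, DMSO replicate 1 or DMSO replicate 2, with adjusted p of 0.11, 0.0956 and 0.0582 (0.00485 to 0.11 over its alternatives).

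**Figure D3:**
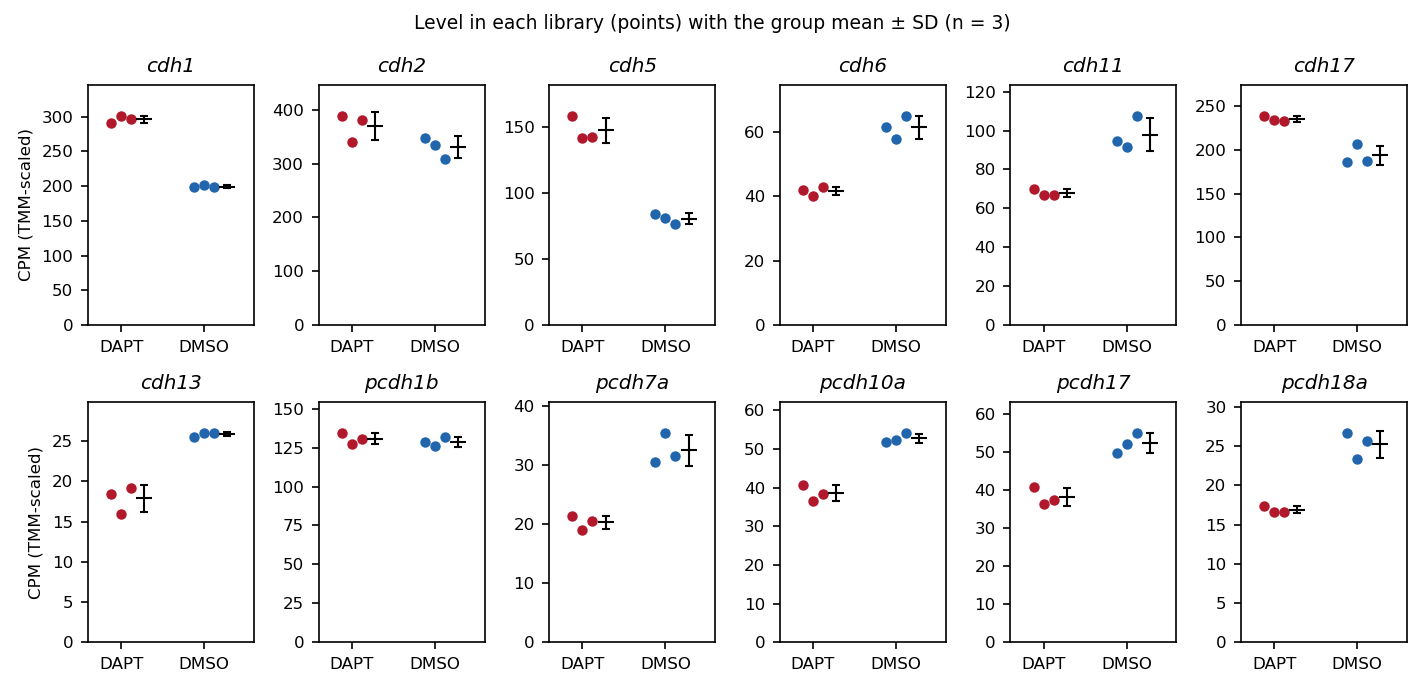
Level (CPM, TMM-scaled, vertical axis from 0) of 12 members in each DAPT library (left) and DMSO library (right), with the group mean and SD (n = 3) beside the points. Groups overlap for cdh2 and pcdh1b; cdh1, cdh5 and cdh17 lie higher with DAPT, and the other 7 genes lie lower.

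Among cdh genes outside the classical types, cdh17 was by far the most abundant. Its product, LI-cadherin, is known from intestine in mammals and from the pronephric duct and gut in zebrafish. DAPT libraries had 239, 234 and 233 CPM, against 187, 206 and 188 CPM in DMSO libraries (0.28 ± 0.06, adjusted p = 0.00199). All 3 DAPT values were above the highest DMSO value, that of replicate 2. In the enterocyte and kidney tubule marker list 5 of 15 genes rose and 6 fell, with a summed level of 2705 to 2870 CPM with DAPT and 2243 to 2426 CPM with DMSO. Those that rose were fabp2, fabp1b.1, vil1, cdx1b and slc15a1b. Those that fell were apoa4b.1, cubn, lrp2a, slc20a1a, slc12a1 and pax2a. The list pools markers of 2 tissues, which were not summed apart. T-cadherin, the product of cdh13, has a lipid anchor in place of a cytoplasmic tail. Its gene had 18.4, 16.0 and 19.2 CPM with DAPT, against 25.5, 26.0 and 26.0 CPM with DMSO (-0.53 ± 0.08, adjusted p = 0.00016).

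The other 3 genes tested in that class did not pass. The gene cdh27 had 44.0, 51.2 and 50.4 CPM with DAPT, against 48.9, 47.4 and 38.4 CPM with DMSO (0.11 ± 0.09). Expression of cdh26.1 was 21.9 to 23.5 CPM with DAPT and 23.8 to 24.8 CPM with DMSO (-0.12 ± 0.07, adjusted p = 0.144), and it passed with library totals alone (-0.22, adjusted p = 0.0226; range over alternatives 0.0226 to 0.366). The gene cdh28 stayed under 1 CPM in every library. The gene cdh16, known in mammals as a kidney cadherin, had 0.382, 0.537 and 0.517 CPM with DAPT, against 0.335, 0.237 and 0.182 CPM with DMSO, and was under the filter on low counts. Its DAPT values lay above its DMSO values, at a level well under 1 CPM.

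The proteins of cdh23 and pcdh15 form the tip link of sensory hair cells. The gene cdh23 went the opposite way to pcdh15a and pcdh15b, at low levels and close to the threshold. Whether both pcdh15 genes act in hair cells was not tested. The gene cdh23 had 1.34, 1.90 and 1.505 CPM with DAPT, against 1.00, 0.902 and 1.19 CPM with DMSO (0.61 ± 0.23, adjusted p = 0.0496). For pcdh15a the values were 4.92, 5.17 and 5.22 CPM with DAPT, against 7.46, 5.89 and 6.25 CPM with DMSO (-0.35 ± 0.12, adjusted p = 0.0335), and for pcdh15b they were 11.8, 10.8 and 9.59 CPM with DAPT, against 13.6, 11.9 and 12.9 CPM with DMSO (-0.26 ± 0.10, adjusted p = 0.0498). Groups did not overlap in any of the 3 genes. The call of cdh23 was lost in 9 of 12 alternatives, among them without DAPT replicates 2 and 3 (adjusted p = 0.183 and 0.0872) and without DMSO replicates 1 and 2 (0.11 and 0.125), and its adjusted p was 0.0454 to 0.183 over all of them. That of pcdh15a was lost in 6 of 13, without DAPT replicates 1, 2 and 3 (0.102, 0.0724 and 0.0749), DMSO replicate 1 (0.147), with the replicate block (0.054) and with DESeq2 (0.104), with 0.0099 to 0.147 over all. That of pcdh15b was lost in 9 of 13, among them without DAPT replicates 2 and 3 (0.104 and 0.204), without DMSO replicates 1 and 3 (0.158 and 0.0711) and with the replicate block (0.0549), with 0.0116 to 0.204 over all. With the replicate block cdh23 had an adjusted p of 0.0765. Of 13 hair cell markers tested 9 rose and 1 fell, with 141 to 149 CPM in sum with DAPT and 91.1 to 98.2 CPM with DMSO.

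Outside the clusters, protocadherins of the delta-1 group differed among themselves. The gene pcdh1b (gene ID 572016) was the most abundant protocadherin, at 37.1 ± 1.25 TPM with DAPT and 41.0 ± 1.61 TPM with DMSO (SD, n = 3 each). Its product is related to mammalian PCDH1, which is known from epithelia. It had 134, 128 and 130.4 CPM with DAPT, against 128, 126 and 132 CPM with DMSO. The groups overlapped and it was not called (0.02 ± 0.05, adjusted p = 0.747), with a value of -0.075 under library totals. Its paralogue pcdh1a had 18.8, 17.1 and 19.9 CPM with DAPT, against 23.6, 26.2 and 28.3 CPM with DMSO, lower in all DAPT libraries (-0.48 ± 0.09, adjusted p = 0.000597).

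The other delta-1 genes encode neural protocadherins with long cytoplasmic tails. The gene pcdh7a had 21.4, 19.1 and 20.5 CPM with DAPT, against 30.5, 35.4 and 31.5 CPM with DMSO (-0.68 ± 0.08, adjusted p = 2.19e-05), the largest fall among protocadherins outside the clusters. Its paralogue pcdh7b had 27.4, 25.6 and 28.3 CPM with DAPT, against 35.2, 34.6 and 36.0 CPM with DMSO (-0.38 ± 0.06). For pcdh11 the levels were 20.7, 22.5 and 21.5 CPM with DAPT, against 29.3, 30.2 and 38.9 CPM with DMSO (-0.61 ± 0.10), DMSO replicate 3 being the highest. In contrast pcdh9, at 15.2, 14.9 and 14.5 CPM with DAPT, against 11.8, 12.3 and 14.3 CPM with DMSO, lay above DMSO in every DAPT library without passing (0.21 ± 0.09, adjusted p = 0.0696). It passed without DMSO replicate 3 (0.30, adjusted p = 0.0118; range over alternatives 0.0118 to 0.367).

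Protocadherins of the delta-2 group guide the movement of cells and axons in the embryo. All 7 had a negative log2 fold change, and 6 of them fell. The gene pcdh18a had 17.4, 16.6 and 16.6 CPM with DAPT, against 26.7, 23.4 and 25.6 CPM with DMSO (-0.58 ± 0.07, adjusted p = 5.56e-05). Its paralogue pcdh18b, the most abundant of the group in TPM, had 54.8, 47.5 and 53.1 CPM with DAPT, against 56.1, 57.4 and 66.5 CPM with DMSO (-0.21 ± 0.08, adjusted p = 0.04). The fall of pcdh18a was clear of the replicate spread, while the call of pcdh18b was lost without DAPT replicate 2 (0.172), DAPT replicate 3 (0.0839) or DMSO replicate 3 (0.123) and with DESeq2 (0.0638), with adjusted p of 0.00978 to 0.172 over its alternatives. The gene pcdh17 had 40.9, 36.3 and 37.3 CPM with DAPT, against 49.8, 52.2 and 55.0 CPM with DMSO (-0.46 ± 0.07, adjusted p = 0.000145).

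OL-protocadherin is the product of the pcdh10 genes and is known from axon growth in the forebrain. The gene pcdh10a had 40.6, 36.6 and 38.4 CPM with DAPT, against 51.9, 52.3 and 54.1 CPM with DMSO (-0.45 ± 0.06, adjusted p = 7.1e-05). Levels of pcdh10b were 44.1, 37.9 and 42.6 CPM with DAPT, against 47.1, 50.0 and 52.8 CPM with DMSO (-0.27 ± 0.07, adjusted p = 0.00867). Both genes were lower in each DAPT library than in any DMSO library. The gene pcdh19, whose human counterpart is mutated in a form of epilepsy, had 44.9, 39.1 and 45.0 CPM with DAPT, against 49.4, 53.6 and 49.3 CPM with DMSO (-0.24 ± 0.07, adjusted p = 0.0131). Its call was lost without DAPT replicate 2 (-0.17, adjusted p = 0.0673; range over alternatives 0.00194 to 0.0673). The paraxial protocadherin gene pcdh8, at 6.07 to 7.32 CPM with DAPT and 5.27 to 11.5 CPM with DMSO, did not pass (-0.27 ± 0.22). DMSO replicate 3 decided its sign, since the value was 0.088 without it, and without DMSO replicate 2 it passed at -0.50 (adjusted p = 0.0332; range over alternatives 0.0332 to 0.661).

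In 4 of the 5 pairs of paralogues that share a protocadherin number, the ratio of the a gene over the b gene was lower in every DAPT library than in any DMSO library. Among single genes tested, 56.8% were fully separate between the groups. No such share was computed for ratios of other gene pairs, so the count of pairs cannot be judged. An exact permutation test of 3 libraries against 3 cannot reach a p under 0.05, so it could not decide whether the ratios differ. The log2 ratio of pcdh1a over pcdh1b was -2.82 ± 0.09 with DAPT and -2.31 ± 0.12 with DMSO (SD, n = 3 each), a difference of -0.51. The differences were -0.37 for pcdh18a over pcdh18b, -0.30 for pcdh7a over pcdh7b and -0.19 for pcdh10a over pcdh10b, each with an exact two-sided permutation p of 0.1, the smallest that 3 libraries against 3 allow. Adjusted over the 5 pairs this was 0.125. The pair pcdh15a and pcdh15b overlapped, with a difference of -0.089 and an exact permutation p of 0.4. In each of the 5 pairs the a gene had the lower log2 fold change, which restates the same comparison.

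The symbol pcdh20 stands for 2 genes in the table. The one with gene ID 568796, called pcdh20l in RefSeq, had 29.6, 27.2 and 29.3 CPM with DAPT, against 37.5, 41.0 and 33.1 CPM with DMSO (-0.37 ± 0.08, adjusted p = 0.00242). The one with gene ID 100007362 had 4.21, 4.15 and 4.75 CPM with DAPT, against 3.83, 3.61 and 5.02 CPM with DMSO (0.07 ± 0.15, adjusted p = 0.733). The higher of the pair was lower in every DAPT library, and the other overlapped.

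Clustered protocadherins lie side by side in the genome and splice their own first exon to constant exons that a cluster shares. In the RefSeq table for build GRCz12tu, 18 members named pcdh1a or pcdh1g with a number or letter lie in a single run with no other protein-coding gene between them. The span of the other run holds 20 further protein-coding genes. The 30 members of the other run are named pcdh2 and, beside it, pcdhb, and 26 of these were found in that table. All 48 had counts that were not whole in at least 1 library, as did 20.8% of all genes, against 2 of the 38 other members. Reads from the shared exons may therefore be divided among them, and their single values are uncertain. The genes pcdh2ab6 and pcdh2ab7 had the same value in every library, as did pcdh2g28 and pcdh2g29, so each pair carries 1 measurement. The 48 genes thus carry at most 46, and shared reads may tie these to one another as well.

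Summed levels of the pcdh1 cluster were lower with DAPT, while those of the pcdh2 groups overlapped in TMM-scaled CPM. The 3 pcdh1 alpha genes together had 48.1, 47.4 and 47.6 CPM with DAPT, against 67.0, 65.8 and 75.2 CPM with DMSO, a ratio of 0.688. All 3 genes fell. The 15 pcdh1 gamma genes summed to 195, 211 and 202 CPM with DAPT, against 233, 229 and 288 CPM with DMSO, a ratio of 0.81 with all DAPT libraries lower. DMSO replicate 3 was the highest library, and without it the ratio was 0.876. In this group 7 fell, 1 rose and 7 did not pass. The 14 pcdh2 alpha genes summed to 40.3, 39.0 and 35.2 CPM with DAPT, against 36.9, 36.9 and 50.9 CPM with DMSO. Without DMSO replicate 3 their ratio was 1.03, against 0.918 with it, so that library decided its direction. The 15 pcdh2 gamma genes summed to 114, 105 and 112 CPM with DAPT, against 111, 109 and 116 CPM with DMSO, a ratio of 0.984. That overlap depended on the scaling, since all DAPT libraries were below all DMSO libraries with library totals (ratio 0.919) and in TPM (0.883). How far these sums depend on the way shared reads were counted was not tested, and each identical pair enters them as 2 genes.

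**Figure D4:**
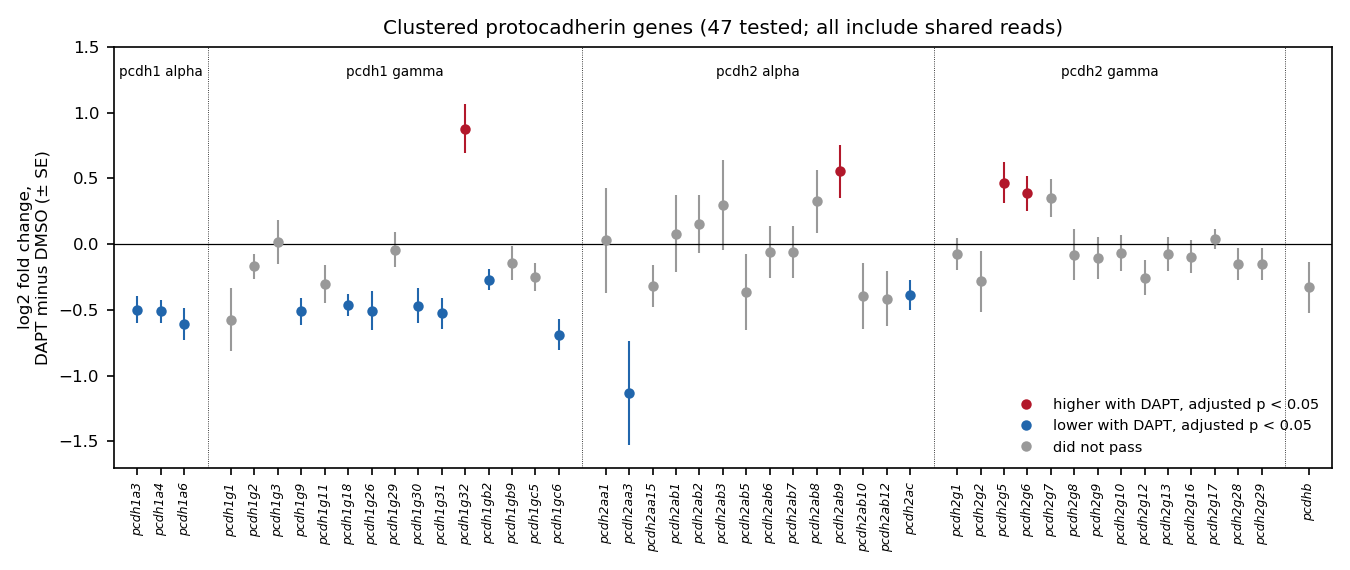
Log2 fold change (DAPT minus DMSO, vertical axis, ± standard error) of the 47 clustered protocadherin genes tested, in order of their names within each group (horizontal axis), coloured by the call at an adjusted p of 0.05. The 3 pcdh1 alpha genes lie between -0.61 and -0.50, and pcdh1g32 is the highest at 0.88; most pcdh2 genes did not pass.

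Within the pcdh1 cluster the called falls lay between -0.69 and -0.27. The gene pcdh1a6 had 13.4, 15.9 and 18.4 CPM with DAPT, against 22.7, 21.6 and 28.2 CPM with DMSO (-0.61 ± 0.12, adjusted p = 0.00156). For pcdh1a4 the values were 21.6, 21.4 and 17.3 CPM with DAPT, against 29.0, 27.7 and 29.0 CPM with DMSO (-0.51 ± 0.09), and pcdh1a3 changed by -0.50 ± 0.10. The largest fall in the gamma group was in pcdh1gc6, with 13.3, 13.8 and 11.8 CPM with DAPT, against 19.6, 17.8 and 25.1 CPM with DMSO (-0.69 ± 0.12, adjusted p = 0.000587). The genes pcdh1g31, pcdh1g9 and pcdh1g18 changed by -0.53 ± 0.12, -0.51 ± 0.10 and -0.47 ± 0.08. Weaker calls were pcdh1g26 (-0.51, adjusted p = 0.0136), lost without DAPT replicate 2 or 3 (0.0584 and 0.0508), pcdh1g30 (-0.47, 0.013), lost without DAPT replicate 3 (0.0702), and pcdh1gb2 (-0.27, 0.0152), lost without DAPT replicate 1 (0.0522) or with DESeq2 (0.0749). Over all alternatives their adjusted p was 0.0009 to 0.0584, 0.00504 to 0.0702 and 0.00394 to 0.0749. The most abundant gene of the cluster in TPM, pcdh1gc5, had 32.6, 35.6 and 32.7 CPM with DAPT, against 36.6, 34.8 and 48.2 CPM with DMSO and did not pass (-0.25 ± 0.11, adjusted p = 0.0759). It passed without DMSO replicate 2 (-0.33, adjusted p = 0.0176) and with library totals (-0.35, 0.024), with 0.0176 to 0.317 over its alternatives. The gene pcdh1g1 (-0.58 ± 0.24, adjusted p = 0.0685) passed with the replicate block (0.0143), with library totals (0.0394) and without DAPT replicate 3 (0.0185) or DMSO replicate 2 (0.047), with 0.0143 to 0.251 over its alternatives. Next in level, pcdh1g29 had 18.5, 27.4 and 24.7 CPM with DAPT, against 24.2, 20.9 and 27.4 CPM with DMSO, with full overlap.

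Against this direction, pcdh1g32 rose. It had 7.84, 11.4 and 9.80 CPM with DAPT, against 4.19, 4.51 and 6.97 CPM with DMSO (0.88 ± 0.19, adjusted p = 0.0021), and passed in every alternative run. All 3 DAPT libraries were above the highest DMSO library. As its counts were not whole, they may include shared reads, and the rise may belong in part to a similar gene.

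In the pcdh2 cluster 3 genes rose and 2 fell, at levels of a few CPM, and none of these calls held in every alternative. The gene pcdh2g5 had 7.36, 7.66 and 6.93 CPM with DAPT, against 4.21, 4.88 and 6.68 CPM with DMSO (0.47 ± 0.15, adjusted p = 0.0254). Levels of pcdh2g6 were 5.68, 4.72 and 5.54 CPM with DAPT, against 4.19, 4.43 and 3.61 CPM with DMSO (0.39 ± 0.14, adjusted p = 0.0341). For pcdh2ab9 they were 2.41, 3.48 and 2.94 CPM with DAPT, against 2.05, 1.57 and 2.32 CPM with DMSO (0.55 ± 0.20, adjusted p = 0.0395). These 3 calls were lost with library totals (adjusted p = 0.08, 0.101 and 0.086), and those of pcdh2g6 and pcdh2ab9 with the replicate block (0.0568 and 0.063) and with DESeq2 (0.0955 and 0.0842). The call of pcdh2g5 was also lost without DAPT replicates 1 and 2 (0.0681 and 0.0798) and DMSO replicates 1 and 2 (0.0986 and 0.0625). That of pcdh2g6 was lost without DAPT replicates 1 and 3 (0.115 and 0.105) and DMSO replicates 1 and 3 (0.0606 and 0.102). That of pcdh2ab9 was lost without DAPT replicates 2 and 3 (0.159 and 0.0921) and DMSO replicates 1 and 2 (0.0737 and 0.124). Over all alternatives the adjusted p was 0.000634 to 0.0986 for pcdh2g5, 0.0282 to 0.115 for pcdh2g6 and 0.0204 to 0.159 for pcdh2ab9. The neighbouring pcdh2g7 (0.35 ± 0.14, adjusted p = 0.063) passed without DMSO replicate 3 (0.51, adjusted p = 0.00658; range over alternatives 0.00658 to 0.233).

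The falls in the pcdh2 cluster were those of pcdh2aa3 and pcdh2ac. The gene pcdh2aa3 had 0.202, 0.578 and 0.332 CPM with DAPT, against 0.690, 0.733 and 1.03 CPM with DMSO (-1.13 ± 0.39, adjusted p = 0.0327), a level near or under 1 CPM. For pcdh2ac the values were 6.99, 7.78 and 7.55 CPM with DAPT, against 8.995, 8.92 and 11.2 CPM with DMSO (-0.38 ± 0.12, adjusted p = 0.0163). The call of pcdh2aa3 was lost without DAPT replicates 1 and 3 (0.134 and 0.104) or DMSO replicate 3 (0.111) and with DESeq2 (0.0887), with 0.0155 to 0.134 over its alternatives. That of pcdh2ac was lost without DAPT replicate 1 (0.0698) or DMSO replicate 3 (0.0582), with 0.00625 to 0.0698 over its alternatives. The identical pair pcdh2ab6 and pcdh2ab7 had 4.23, 3.48 and 3.58 CPM with DAPT, against 3.10, 3.39 and 5.23 CPM with DMSO (-0.06 ± 0.20) and did not pass. The gene pcdhb did not pass either (-0.33 ± 0.19), and pcdh2g3, at 0.201 to 0.463 CPM with DAPT and 0.326 to 0.550 CPM with DMSO, was too low to test. The remaining clustered genes did not pass, but 7 of them passed in at least 1 alternative. Of these, pcdh2ab3 (adjusted p = 0.506; range over alternatives 0.00723 to 0.961) and pcdh2g2 (0.348; 0.0236 to 0.798) passed without DMSO replicate 3. The gene pcdh2ab12 (0.127; 0.0434 to 0.394) passed without DMSO replicate 1. The gene pcdh1g11 (0.107; 0.0081 to 0.448) passed without DMSO replicate 1 and with library totals. The gene pcdh2g12 (0.135; 0.0316 to 0.457) passed with library totals and without DAPT replicate 1 or DMSO replicate 3. With library totals alone pcdh1g2 (0.16; 0.0344 to 0.491) and pcdh2aa15 (0.121; 0.0493 to 0.398) passed.

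For 48 of the 86 members DAPT and DMSO values were fully separate, with DAPT above in 10 and below in 38. Among all genes tested this held for 56.8%, with DAPT above in 27.8% and below in 29%. Taken in either direction, the members thus lay near the share of all genes tested. The 86 include cdh16, with DAPT above, and pcdh2g3, which overlapped. Both were under the filter on low counts that the genes tested had passed. Of the 84 members tested 42 were called, near the 46.6% called among all genes tested. Of these 42, 28 were called in every alternative that tested them. They include both rising and 7 of the 8 falling classical cadherins, and 1 of 2 rising and the 1 falling other cdh gene. The others were 9 of the 13 falling protocadherins outside the clusters, and 1 of 4 rising and 7 of 12 falling clustered genes. The share of all called genes that held in every alternative was not computed.

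Genes for the proteins that tie cadherins to the cytoskeleton were called at about the rate of the whole table. Of 31 genes for linkers and junction partners 8 rose, 8 fell and 15 were not called (median 0.01 on the log2 scale), against 22.4% higher and 24.3% lower among all genes tested. The genes below for alpha- and delta-catenins, which bind the cadherin tail or bridge it to actin, and for beta-catenin were chosen after their values were seen, and no difference between paralogues was tested among them. The widely expressed alpha-catenin gene ctnna1 had 267, 261 and 258 CPM with DAPT, against 189, 202 and 183 CPM with DMSO (0.46 ± 0.06, adjusted p = 5.2e-05). Its neural paralogue ctnna2 had 26.2, 24.8 and 24.5 CPM with DAPT, against 31.6, 32.0 and 32.2 CPM with DMSO (-0.34 ± 0.06, adjusted p = 0.000694). Both differences were clear of the replicate spread. The delta-catenin gene ctnnd1, which encodes p120-catenin, had 136, 145 and 145 CPM with DAPT, against 117, 109 and 113 CPM with DMSO (0.33 ± 0.06). The neural delta-catenin gene ctnnd2b had 20.3, 20.6 and 23.4 CPM with DAPT, against 32.4, 28.6 and 38.3 CPM with DMSO (-0.63 ± 0.10). Its paralogue ctnnd2a was not called (-0.15 ± 0.08, adjusted p = 0.144). The beta-catenin gene ctnnb1 had 618, 603 and 641 CPM with DAPT, against 668, 627 and 572 CPM with DMSO, with overlap. Its counts may include shared reads. The tight junction scaffold gene tjp1b rose by 0.57 ± 0.07, with 166, 150.04 and 165 CPM with DAPT, against 116, 109.9 and 98.7 CPM with DMSO. Its paralogue tjp1a was not called (-0.06 ± 0.07). The nectin gene nectin1a, for another adhesion protein of adherens junctions, changed by -0.64 ± 0.15. Its paralogue nectin1b rose (0.24 ± 0.07, adjusted p = 0.0159), and nectin3a, nectin3b and nectin4a were not called.

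**Figure D5:**
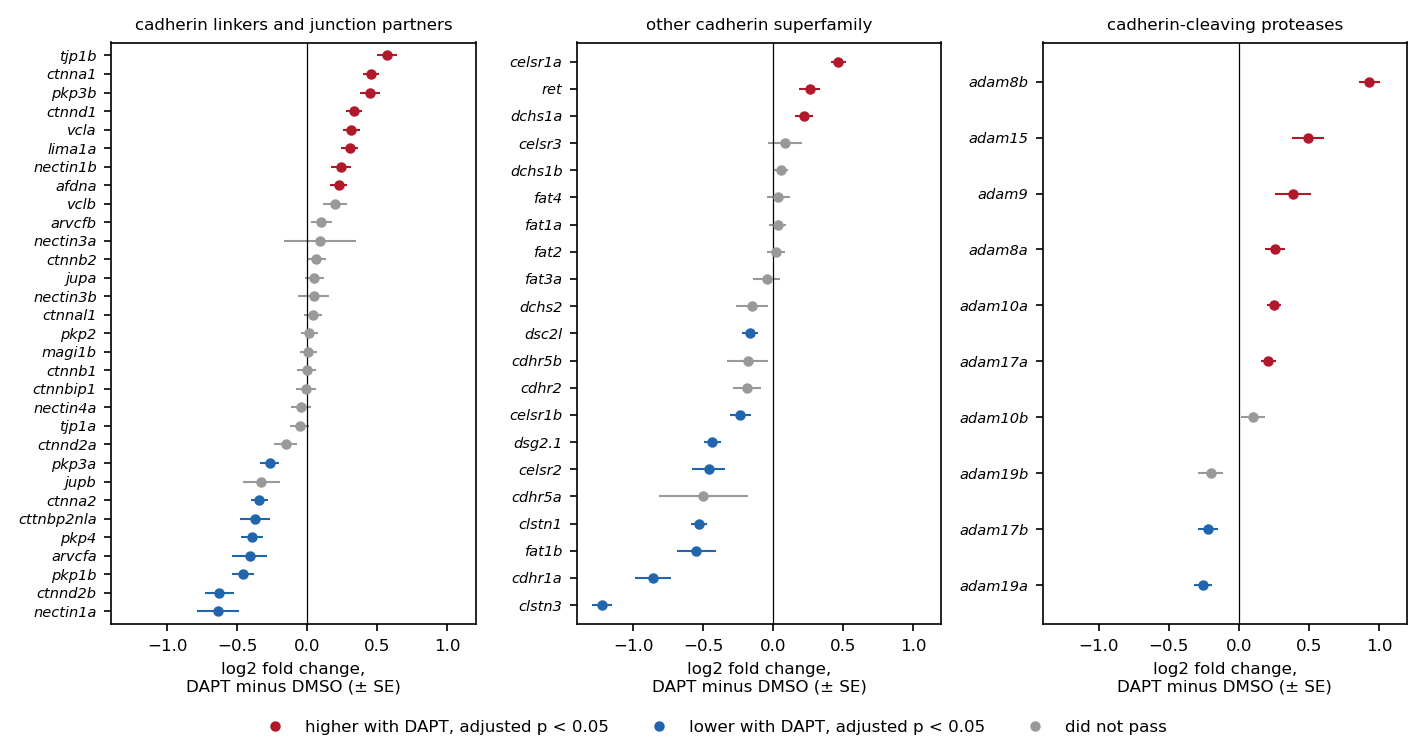
Log2 fold change (DAPT minus DMSO, horizontal axis, ± standard error) of the tested genes for cadherin linkers and junction partners (left), other members of the cadherin superfamily (middle) and metalloproteases that cut cadherins or are related to such proteases (right), sorted by value. In the left panel 8 genes rose and 8 fell, in the middle panel 3 rose and 8 fell, and in the right panel 6 rose and 2 fell. Over all genes tested, 22.4% rose and 24.3% fell.

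Among 21 other members of the cadherin superfamily 3 rose, 8 fell and 10 were not called (median -0.17 on the log2 scale). Over all genes tested, 22.4% were called higher and 24.3% lower. The calsyntenin gene clstn3, for a synaptic cadherin, had 37.6, 32.9 and 39.6 CPM with DAPT, against 81.0, 89.0 and 87.3 CPM with DMSO (-1.22 ± 0.07, adjusted p = 1.17e-07). The photoreceptor cadherin gene cdhr1a had 12.8, 13.0 and 12.3 CPM with DAPT, against 21.8, 18.8 and 28.3 CPM with DMSO (-0.86 ± 0.13). Both were lower in every DAPT library, as was the giant cadherin gene fat1b (-0.55 ± 0.14, adjusted p = 0.00596). The planar polarity gene celsr1a, chosen after its values were seen, rose by 0.47 ± 0.05. It had 107 CPM in each DAPT library, against 80.4, 77.2 and 74.1 CPM in DMSO libraries. Its paralogues did not rise with it. The genes celsr1b (-0.23 ± 0.07, adjusted p = 0.0208) and celsr2 (-0.46 ± 0.12, adjusted p = 0.00615) fell, and celsr3 was not called (0.08 ± 0.12).

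In the list of metalloproteases of the ADAM family, some of which cut cadherins outside the membrane, 6 of 10 rose, 2 fell and 2 were not called (median 0.23 on the log2 scale). The shares over all genes tested were 22.4% higher and 24.3% lower. The gene adam8b had 27.7, 29.8 and 26.9 CPM with DAPT, against 15.3, 15.3 and 13.6 CPM with DMSO (0.93 ± 0.08, adjusted p = 1.67e-06), and adam15 rose by 0.49 ± 0.11. The gene adam9 rose by 0.39 ± 0.13 (adjusted p = 0.0251), a call lost without DAPT replicates 1 and 3 or DMSO replicate 3 (0.0855, 0.0763 and 0.0817), with library totals (0.0726) and with DESeq2 (0.0513), with 0.0205 to 0.0855 over its alternatives. The gene adam10a, chosen after its values were seen, encodes the protease best known for cutting E- and N-cadherin before gamma-secretase acts. It had 185, 189.8 and 189 CPM with DAPT, against 160.5, 157 and 156 CPM with DMSO (0.25 ± 0.05, adjusted p = 0.00174). Its paralogue adam10b was not called (0.10 ± 0.09, adjusted p = 0.359). Of another pair of paralogues, adam17a rose (0.21 ± 0.05, adjusted p = 0.00681) and adam17b fell (-0.22 ± 0.07, adjusted p = 0.0253).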

How the data were processed

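RNA of 6 libraries was measured, 3 with DAPT and 3 with DMSO. Each gene has a read count, an FPKM and a TPM value per library, per the file headers. Of the deposited counts 15.2 to 16.0% per library are not whole, so they were treated as estimated counts, and fractional values were read as including reads split between similar genes. FPKM and TPM were made by the authors, and FPKM was not used. The tools named are featureCounts 1.6.0, STAR 2.7.1a and edgeR, and the build is GRCz11, per the submitters' processing notes, which give no roles here; annotation, strand and counting rules are not given in the sources used here.

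Counts were rounded and analysed in R 4.3.3 with edgeR 4.0.16: filterByExpr, which left 22092 genes and 84 of the 86 members, TMM factors, and a quasi-likelihood test with 4 residual degrees of freedom. On simulated counts this test recovered 64.1% of changes of 0.5 on the log2 scale, 89.8% of changes of 1 and 100% of changes of 2. Of its calls there, 4.88% were false. Far fewer genes were changed in that simulation than were called here, so it does not check scaling or false calls under these conditions. No test was made over members. Genes with values in each library were those fixed by role, the 3 highest in TPM and up to 5 rising and 5 falling in each class, and up to 3 in each partner list. Others were chosen after their values were seen. The members and lists were chosen with earlier results of these data known. Of 15 lists, 3 hold partner genes and 12 cell type markers. In the blood cell list, not given in the text above, 5 of 12 markers rose and 5 fell. Of the 15 heart muscle markers, given above only by their summed level, 13 rose and 1 fell.

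Alternatives were DESeq2 size factors, library totals alone, no filter, 5 CPM in 3 libraries, DESeq2 1.42.0, limma-voom (limma 3.58.1), the replicate number as a block, and leaving out each library. Of the members 82 were found by gene ID in RefSeq's table for GRCz12tu. Protein and promoter sequences were not used here. Same-numbered libraries of the groups had correlations of -0.0679 to 0.00917 between their deviations from the group means, so the numbers were not taken to pair the samples. Replicates differed by more than counting noise (chi-square per gene 1.99 to 11.4).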

Additional observations from a re-analysis of the deposited data

How the results depend on the processing

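Calls near the threshold and sums within clusters limit these results. Counts of calls ranged as follows when 1 library was left out: classical cadherins 2 to 3 higher and 7 to 8 lower, other cdh genes 1 to 2 higher and 1 lower, clustered protocadherins 1 to 5 higher and 10 to 14 lower, other protocadherins 0 to 1 higher (pcdh9, without DMSO replicate 3) and 9 to 14 lower. Medians of the log2 fold change then ranged from -0.53 to -0.42 in classical cadherins, -0.035 to 0.18 in other cdh genes, -0.22 to -0.11 in clustered and -0.35 to -0.31 in other protocadherins, and -0.26 to -0.18 over all members. Ratios of summed levels, an alternative added after the data were seen, ranged from 1.13 to 1.17, 1.101 to 1.154, 0.815 to 0.896 and 0.818 to 0.852 in the same order of classes. With library totals alone the medians were -0.55, -0.10 and -0.41 in classical cadherins, other cdh genes and other protocadherins and -0.35 over all members, the sums had ratios of 1.08, 1.05 and 0.778, other cdh genes had 1 higher and 2 lower, and clustered protocadherins 1 higher and 18 lower, with a summed ratio of 0.786. With deposited TPM the ratios were 1.05, 1.01 and 0.746, and 0.771 in clustered protocadherins. Other cdh genes had 1 higher with no filter (median 0.12), with DESeq2 and with limma-voom. They also had 1 higher with 5 CPM in 3 libraries, a filter that left cdh23 untested. With 5 CPM in 3 libraries clustered protocadherins had 2 higher, as pcdh2ab9 and pcdh2g6 were not tested there. The median of other protocadherins was then -0.38. With DESeq2 the clustered had 2 higher. With the replicate block, which had no basis in the labels or the data, other cdh genes had 1 higher and clustered protocadherins 2 higher, and none of the 3 DAPT libraries correlated best with its own number. Taking all cdh genes as classical gave 4 higher and a median of -0.32. With members of whole counts only, classical cadherins had 1 higher, other cdh genes a median of 0.11 and all members -0.35. Values turned sign for ctnnb1 (0.0019 with DESeq2 size factors, 0.00070 with no filter, 0.0019 with DESeq2, and -0.0624 to 0.051 without 1 library), pcdh1b (-0.075 with library totals and -0.0017 with 5 CPM in 3 libraries), pcdh12 (-0.023 with library totals), pcdh1g29 (-0.16 to 0.11 without 1 library), pcdh2ab6 (-0.20 to 0.21 without 1 library, highest without DMSO replicate 3) and pcdh8 (-0.50 to 0.088 without 1 library, likewise); in the full data none of these passed. The causes were not tested. Depth limits members under 1 CPM, such as cdh16, cdh28 and pcdh2g3.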
